A study of Mus musculus with 32 samples.

Results

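The 10 genes described here belong to the BCL2 family: Bcl2, Bcl2l1, Bcl2l2 and Mcl1, which restrain apoptosis, Bax and Bak1, which carry it out at the mitochondrion, Bad, Bid and Bcl2l11, which set it off, and Bcl2l14, whose role is less settled. They were chosen by symbol, were matched to Ensembl identifiers with the GENCODE annotation of GRCm38 (mm10), the build of all coordinates here, and were 10 of the 20368 genes of the juvenile gene table. Germ cells were prepared from the testes of single C57BL/6J mice in the first wave of spermatogenesis, with 3 mice at 8 days post-partum (dpp) and 5 mice at each of 10, 12, 14, 16 and 18 dpp. The authors had sampled 5 mice at 8 dpp but omitted those whose cytology and RNA matched others of that age poorly. The paper names too few cells as the likely reason. The spread at 8 dpp, and any lack of overlap with other ages, is that of the mice kept. A separate table held 4 samples of C57BL/6J mice of 9 weeks in which pachytene and diplotene spermatocytes had been enriched by STA-PUT, a sedimentation of dissociated cells by size, and each of these pooled the testes of several mice. The labels name no treatment and no altered allele in any group. Poly-A RNA was sequenced, and the values are TPM, an estimate of each gene's share of all transcripts that is corrected for transcript length and scaled to the same total in each sample. In these bulk samples of mixed cells, fewer cells of a type and less RNA per cell cannot be told apart.

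Apoptosis through the mitochondrion is set by the balance among 3 kinds of BCL2 proteins. BAX and BAK1 oligomerise in the outer mitochondrial membrane and release cytochrome c, BCL2, BCL-XL (the main product of Bcl2l1), BCL-W (the product of Bcl2l2) and MCL1 hold them in check, and the BH3-only proteins BAD, BID and BIM (the product of Bcl2l11) bind the guardians or the effectors and tip the balance. In the testis a wave of germ cell apoptosis accompanies the first wave of spermatogenesis, loss of Bax in mice leads to an excess of premeiotic germ cells and blocks spermatogenesis, and loss of Bcl2l2 makes males sterile. BCL-XL is needed for the survival of fetal germ cells.

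The sequences that precede the transcription start are shown for the 3 members that rose from 8 to 18 dpp and for the 3 with the largest falls. Each is the 250 bases before a RefSeq start on GRCm38.p6, 5′ to 3′ in the direction of transcription, and holds no annotated exon. Capitals mark matches, on either strand, to the GC box (GGGCGG), the CCAAT box (CCAAT), the E-box (CACGTG) or the core of the cAMP response element (TGACGT). The windows are those of Bad (chr19:6941611-6941860, plus strand), Bcl2l1 (chr2:152831729-152831978, minus strand), Bcl2l14 (chr6:134414178-134414427, plus strand), Bcl2l11 (chr2:128125788-128126037, plus strand), Bcl2 (chr1:106714291-106714540, minus strand) and Bax (chr7:45466899-45467148, minus strand).
Bad: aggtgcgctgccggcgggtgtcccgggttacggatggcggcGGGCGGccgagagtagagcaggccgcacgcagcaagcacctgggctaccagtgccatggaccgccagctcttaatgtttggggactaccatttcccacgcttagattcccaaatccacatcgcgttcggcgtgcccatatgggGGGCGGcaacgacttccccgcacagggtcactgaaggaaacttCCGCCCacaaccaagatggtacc
Bcl2l1: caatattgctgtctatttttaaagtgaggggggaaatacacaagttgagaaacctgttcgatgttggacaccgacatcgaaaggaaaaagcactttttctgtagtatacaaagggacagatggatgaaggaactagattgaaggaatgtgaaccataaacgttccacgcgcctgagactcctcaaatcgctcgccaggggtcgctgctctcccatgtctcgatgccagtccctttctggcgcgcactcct
Bcl2l14: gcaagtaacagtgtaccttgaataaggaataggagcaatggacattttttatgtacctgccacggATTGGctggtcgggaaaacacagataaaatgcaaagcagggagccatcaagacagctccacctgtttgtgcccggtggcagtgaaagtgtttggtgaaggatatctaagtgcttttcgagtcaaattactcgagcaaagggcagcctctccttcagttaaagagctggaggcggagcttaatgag
Bcl2l11: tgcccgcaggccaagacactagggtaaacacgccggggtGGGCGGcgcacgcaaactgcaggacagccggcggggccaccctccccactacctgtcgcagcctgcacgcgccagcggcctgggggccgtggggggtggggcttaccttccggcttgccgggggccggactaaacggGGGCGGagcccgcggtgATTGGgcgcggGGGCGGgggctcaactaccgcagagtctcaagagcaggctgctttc
Bcl2: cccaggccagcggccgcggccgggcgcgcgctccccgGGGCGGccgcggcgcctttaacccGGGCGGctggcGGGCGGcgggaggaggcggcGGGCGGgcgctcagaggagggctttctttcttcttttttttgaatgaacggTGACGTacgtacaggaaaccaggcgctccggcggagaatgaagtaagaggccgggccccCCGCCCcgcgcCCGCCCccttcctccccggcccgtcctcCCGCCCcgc
Bax: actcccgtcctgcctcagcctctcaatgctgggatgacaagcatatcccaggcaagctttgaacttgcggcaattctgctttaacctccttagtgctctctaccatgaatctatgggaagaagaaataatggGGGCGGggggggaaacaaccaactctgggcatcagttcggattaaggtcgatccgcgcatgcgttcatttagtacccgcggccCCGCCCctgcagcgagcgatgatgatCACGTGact

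These windows belong to the starts of Bad-201, Bcl2l1-201, Bcl2l14-202, Bcl2l11-205, Bcl2-201 and Bax-201, which begin at or close to the RefSeq starts. They are not the starts of Bad-202 and Bcl2l14-204, the forms of Bad and Bcl2l14 with the most RNA at 18 dpp. The GC box was present in 4 of the 6 windows, those of Bad with 3 matches, Bcl2l11 with 3, Bcl2 with 7 and Bax with 2, and in 32.7% of all 32851 RefSeq windows of the same length. The CCAAT box, found in 33.8% of all windows, matched once in Bcl2l14 and once in Bcl2l11. The E-box (6.02% of all windows) matched only in Bax among the 6, the TGACGT core (6.47%) only in Bcl2, and TATAAA (12.4%) in none of the 6. The Bcl2 window had a GC content of 74.8% and 36 CpG sites, against 46.8% and 6 CpG sites for Bcl2l14 and a median of 52.4% over all windows.

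Ages were compared with limma on log2(TPM + 1), with p-values adjusted over all 20368 genes. From 8 to 18 dpp all 10 members passed an adjusted p of 0.05, with 3 higher (Bad, Bcl2l14 and Bcl2l1) and 7 lower, against 68.2% of all genes tested, 31.8% higher and 36.3% lower. With median-of-ratios factors, which rescale each sample by its median gene, the balance over all genes turned, from 6487 higher and 7402 lower to 7589 higher and 5991 lower. Since most genes of these samples changed with age, the number of members called is not a result about the family, and the text below turns on sizes, directions and times. The median log2 fold change of the 10 members was -0.51, and that of all genes was -0.09. With median-of-ratios factors the median of all genes was 0.05, and with quantile normalisation it was -0.26, and all 10 members kept their direction and their call under both. Of the members, 2 passed the filter of the gene table, 3 TPM in at least 1 mouse, through few mice: Bcl2 reached 3 TPM in 4 mice, none older than 10 dpp, and Bcl2l14 in 1 mouse, at 18 dpp. Each thus entered through ages at which it was high. Tests of these 2 genes that involve those ages are therefore not separate support for their direction. The samples of 8 and 18 dpp did not overlap in any of the 10 members, as in 61.0% of all genes.

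**Figure D1:**
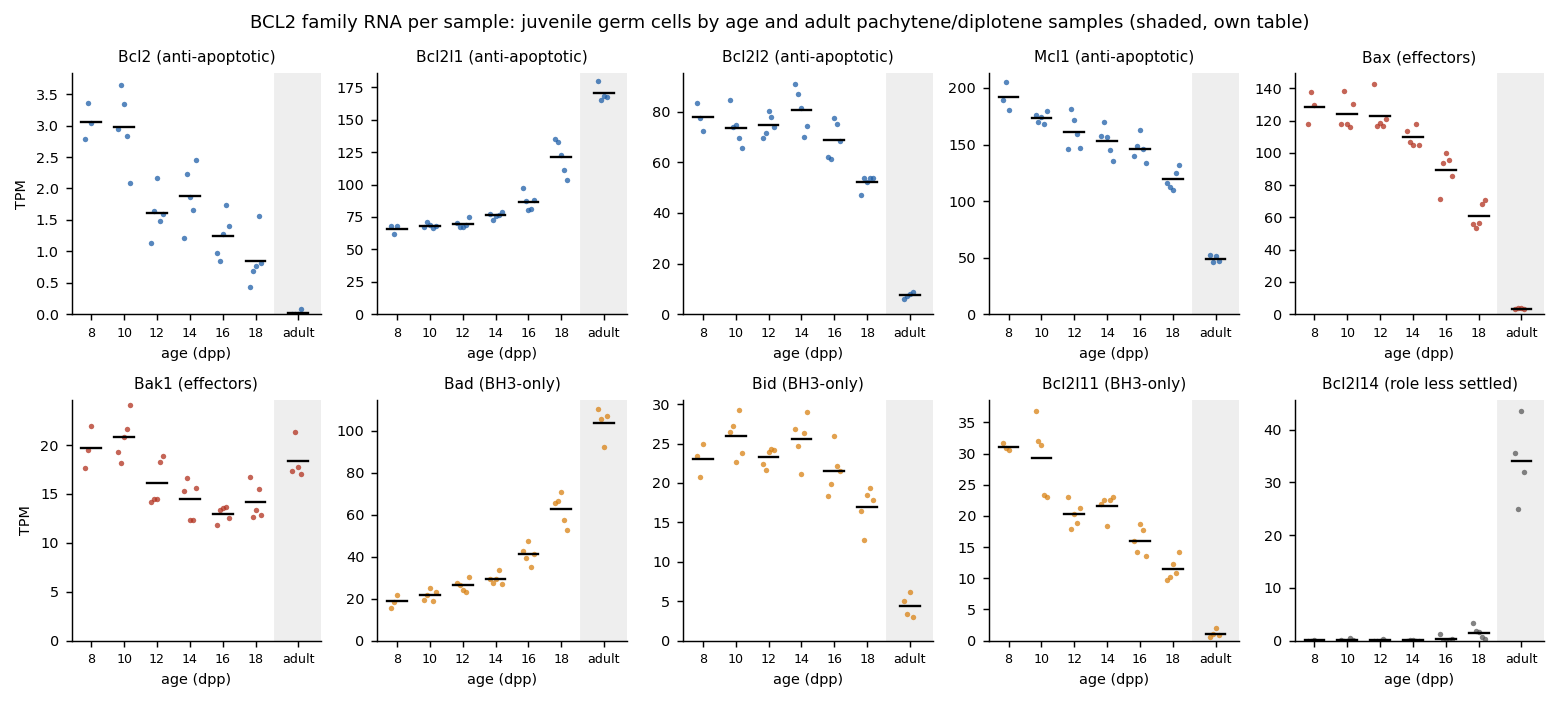
TPM of each member in every sample (points) with the mean of each group (black bar), by age in dpp, with the 4 adult samples shaded because their table was normalised apart. Bad climbs from a mean of 18.7 TPM at 8 dpp to 62.6 TPM at 18 dpp, whereas Bax descends from 128 to 61.0 TPM and lies under 4 TPM in the adult samples.

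The cells around the members changed over the same ages. The 4 germ cell markers summed to 709 to 929 TPM at 8 dpp and 2216 to 2473 TPM at 18 dpp, with 3 of 4 (all but Dazl) called higher. The 6 spermatocyte markers, all called higher, summed to 212 to 319.8 and 2989 to 4457 TPM, and the 6 spermatogonia markers, all called lower, to 838 to 968 and 390.2 to 560.2 TPM. The preparations also held somatic RNA: the sum of 8 Sertoli cell markers was 2521 to 2871 TPM at 8 dpp and 1006 to 1508 TPM at 18 dpp, with 7 of 8 called lower and Rhox5 higher, and none of the 8 was at 0. Sums for peritubular cells (5 markers, 1051 to 1160.0 and 524 to 1034 TPM), Leydig cells (6, 175 to 198 and 169 to 472), macrophages (5, 30.5 to 41.5 and 51.0 to 99.7), red blood cells (5, 243 to 681 and 249.8 to 367) and endothelial cells (4, 50.2 to 56.6 and 31.8 to 65.2) likewise showed RNA of other cells, whereas 6 spermatid markers stayed at or under 6.19 TPM in sum at these 2 ages, with Tnp2 at 0 in every mouse of 8 dpp. The germ cell and Sertoli cell sums moved with age as the members did, and their part in the results was not tested. At 18 dpp replicates 4 and 5 stood apart, with Sertoli cell sums of 1508 and 1381 TPM and spermatocyte sums of 2999 and 2989 TPM, against at most 1048 and at least 4267 TPM in the other 3 mice. With samples 1 to 3 of each age alone, all 10 members were again called from 8 to 18 dpp in the same directions, as were 14414 of all 20368 genes in either direction. Bad was then at 1.82, Bcl2l1 at 0.97, Bax at -1.20 and Bcl2l11 at -1.46 on the log2 scale. Of the 15 libraries of 14 to 18 dpp, 13 carried a barcode also used at 8 to 12 dpp. Libraries with the same barcode cannot be read in 1 pool, so values within the libraries of 8 to 12 dpp (the first set) and of 14 to 18 dpp (the second set) are given beside those of the whole interval.

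Among the anti-apoptotic members Bcl2l1 rose, and Bcl2, Bcl2l2 and Mcl1 fell. Bcl2l1 (ENSMUSG00000007659, chromosome 2 from 152780668 to 152831728) stood at 61.9, 67.7 and 68.3 TPM in the 3 mice of 8 dpp and at 103, 111, 123, 133 and 135 TPM in the 5 of 18 dpp. Every mouse of 18 dpp lay above every younger mouse. Mean values over the 6 ages in turn were 66.0 ± 3.53, 68.3 ± 1.91, 69.6 ± 3.18, 76.1 ± 2.18, 86.9 ± 6.96 and 121 ± 13.8 TPM (SD, n = 3 at the first age and n = 5 at the others), and the log2 fold change from 8 to 18 dpp was 0.86 (standard error 0.0728, limma adjusted p = 5.58e-11). Most of this rise came late, with 0.08 (standard error 0.0728, limma adjusted p = 0.509) within the first set of libraries and 0.65 (standard error 0.0630, limma adjusted p = 1.01e-09) within the second.

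Mcl1 (ENSMUSG00000038612, chromosome 3 from 95658788 to 95663176), whose protein turns over quickly, was the most abundant member from 8 to 16 dpp. It measured 181, 189 and 205 TPM at 8 dpp and 110.1, 113, 116, 125 and 132 TPM at 18 dpp. Its decline was spread over the ages, with means over the 6 ages in turn of 192 ± 12.3, 174 ± 4.63, 161 ± 15.6, 153 ± 13.3, 146 ± 11.2 and 119 ± 9.19 TPM (SD, n = 3 at the first age and n = 5 at the others), a change of -0.68 (standard error 0.0788, limma adjusted p = 1.83e-08). Within the sets Mcl1 changed by -0.25 (standard error 0.0788, limma adjusted p = 0.0200) and by -0.36 (standard error 0.0683, limma adjusted p = 4.89e-05). The first of these calls was lost without replicate 1 or 2 of 8 dpp or replicate 1 or 5 of 12 dpp (limma adjusted p from 0.0524 to 0.124), under quantile normalisation (limma adjusted p = 0.0653), with only the 2 ages in the model (limma adjusted p = 0.0654) and with samples 1 to 3 alone (limma adjusted p = 0.0601). The second was lost with median-of-ratios factors, at -0.12 (limma adjusted p = 0.0981).

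Bcl2l2 (ENSMUSG00000089682, chromosome 14 from 54883377 to 54888234), the gene whose loss makes male mice sterile, kept its level through 14 dpp and then declined. Its 8 dpp values of 72.5, 77.5 and 83.6 TPM lay within the range at 14 dpp (69.9 to 90.9 TPM), whereas the 18 dpp mice had 46.9, 52.2, 53.7, 54.0 and 54.0 TPM. The change from 8 to 18 dpp was -0.57 (standard error 0.0900, limma adjusted p = 3.23e-06), that from 8 to 12 dpp -0.06 (standard error 0.0900, limma adjusted p = 0.701) and that from 14 to 18 dpp -0.62 (standard error 0.0780, limma adjusted p = 1.15e-07). Another gene on the same strand, Gm20521, shares 594 of the 4462 exon bases of Bcl2l2 and had lower values at 18 dpp (16.0 and 5.10 TPM on average), so reads of both could have been split.

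Bcl2 itself (ENSMUSG00000057329, chromosome 1 from 106538178 to 106714274), the founding member of the family, was scarce throughout. The mice of 8 dpp had 2.79, 3.04 and 3.36 TPM, and those of 18 dpp 0.44, 0.68, 0.76, 0.81 and 1.57 TPM. Its means over the 6 ages in turn were 3.06 ± 0.286, 2.98 ± 0.591, 1.60 ± 0.374, 1.88 ± 0.487, 1.25 ± 0.353 and 0.852 ± 0.426 TPM (SD, n = 3 at the first age and n = 5 at the others). On the log2(TPM + 1) scale, which understates changes of low genes, the fall was -1.16 (standard error 0.189, limma adjusted p = 5.28e-06), with -0.65 (standard error 0.189, limma adjusted p = 0.0130) in the first set and -0.65 (standard error 0.164, limma adjusted p = 0.00109) in the second. Leaving out replicate 2 of 8 dpp ended the call in the first set (-0.60, adjusted p = 0.0597, limma).

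Both effectors fell from 8 to 18 dpp. Bax (ENSMUSG00000003873, chromosome 7 from 45461697 to 45466898) had 118, 129 and 137 TPM at 8 dpp and still 105, 105, 106, 113 and 118 TPM at 14 dpp. At 16 dpp the 5 mice had 71.4, 85.9, 93.8, 95.6 and 99.9 TPM, and at 18 dpp 53.6, 56.0, 56.5, 68.0 and 70.7 TPM. No mouse of 16 dpp reached the lowest mouse of 14 dpp, and none of 18 dpp the lowest of 16 dpp. The mean went from 128 ± 9.79 TPM (SD, n = 3 mice of 8 dpp) to 61.0 ± 7.81 TPM (SD, n = 5 mice of 18 dpp), a log2 fold change of -1.07 (standard error 0.0990, limma adjusted p = 3.26e-10). From 8 to 12 dpp it changed by -0.06 (standard error 0.0990, limma adjusted p = 0.724) and from 14 to 18 dpp by -0.84 (standard error 0.0858, limma adjusted p = 2.75e-09). Another gene on the same strand, Gm45808, shares 192 of the 1576 exon bases of Bax in the annotation and has no values here.

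Bak1 (ENSMUSG00000057789, chromosome 17 from 27019810 to 27029009) took another course, with its fall between 10 and 12 dpp and no other step called. The 8 dpp values were 17.7, 19.5 and 21.9 TPM, the 10 dpp mean was 20.8 ± 2.27 TPM, the 12 dpp mean 16.1 ± 2.30 TPM and the 18 dpp mean 14.2 ± 1.79 TPM (SD, n = 5 at each of these). From 10 to 12 dpp the change was -0.36 (standard error 0.103, limma adjusted p = 0.0133), from 8 to 18 dpp -0.45 (standard error 0.118, limma adjusted p = 0.00159), and from 14 to 18 dpp -0.02 (standard error 0.103, limma adjusted p = 0.861). Its values carry a caution, since the opposite-strand gene Ggnbp1 overlaps 437 of the 2407 exon bases of Bak1 and went from a mean of 13.0 TPM at 8 dpp to 497 TPM at 18 dpp, and the sources name no strand-specific protocol. Reads of both genes then cannot be told apart where their exons overlap.

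The 3 BH3-only members went in different directions, with Bad higher and Bcl2l11 and Bid lower at 18 dpp. Bad (ENSMUSG00000024959, chromosome 19 from 6941861 to 6951899), which binds BCL-XL, BCL2 and BCL-W, had the largest change of the 10 members on the log2(TPM + 1) scale, although with a pseudocount of 0.1 that of Bcl2l14 was larger (3.19 against 1.75), and under quantile normalisation that of Bcl2 (-1.66 against 1.57). It measured 15.6, 18.5 and 21.9 TPM at 8 dpp, 27.1, 27.6, 29.4, 29.5 and 33.7 TPM at 14 dpp, 34.9, 39.3, 41.5, 42.6 and 47.4 TPM at 16 dpp and 52.9, 57.3, 65.5, 66.6 and 71.0 TPM at 18 dpp. The groups of 14, 16 and 18 dpp did not overlap. Means rose from 18.7 ± 3.19 TPM (SD, n = 3) to 62.6 ± 7.37 TPM (SD, n = 5), or by 1.70 (standard error 0.116, limma adjusted p = 8.16e-13) on the log2 scale. Unlike Bcl2l1, Bad had also risen within the first set, by 0.48 (standard error 0.116, limma adjusted p = 0.00320), although without replicate 1 of 8 dpp this was 0.36, adjusted p = 0.0502 (limma). Whether the early rises of Bad and Bcl2l1 differ was not tested. Between 14 and 18 dpp Bad rose by 1.06 (standard error 0.10, limma adjusted p = 7.50e-10). The opposite-strand gene Gpr137 overlaps 524 of the 2558 exon bases of Bad and had means of 17.6 and 95.6 TPM at 8 and 18 dpp, so reads of the overlap are uncertain.

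Bcl2l11 (ENSMUSG00000027381, chromosome 2 from 128126038 to 128162547), which encodes BIM, had the largest fall on the log2(TPM + 1) scale, whereas Bcl2 fell further with a pseudocount of 0.1 (-1.83 against -1.44) and under quantile normalisation (-1.66 against -1.50). The mice kept at 8 dpp had 30.6, 30.9 and 31.7 TPM, and those of 18 dpp had 9.78, 10.2, 10.9, 12.2 and 14.3 TPM. The 10 dpp mice were spread from 23.0 to 36.8 TPM and overlapped both 8 and 12 dpp. The 6 ages in turn had means of 31.1 ± 0.558, 29.3 ± 6.01, 20.3 ± 2.03, 21.6 ± 1.90, 16.0 ± 2.20 and 11.5 ± 1.82 TPM (SD, n = 3 at the first age and n = 5 at the others), with log2 fold changes of -1.37 (standard error 0.135, limma adjusted p = 9.48e-10) over the whole interval, -0.60 (standard error 0.135, limma adjusted p = 0.00186) in the first set and -0.87 (standard error 0.117, limma adjusted p = 3.23e-07) in the second.

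Bid (ENSMUSG00000004446, chromosome 6 from 120891930 to 120916853), whose protein is cleaved by caspase-8 to link death receptors to mitochondria, had 20.7, 23.4 and 25.0 TPM at 8 dpp and 12.8, 16.5, 17.8, 18.4 and 19.3 TPM at 18 dpp. Its change was -0.43 (standard error 0.117, limma adjusted p = 0.00212), with 0.02 (standard error 0.117, limma adjusted p = 0.955) from 8 to 12 dpp and -0.57 (standard error 0.102, limma adjusted p = 1.96e-05) from 14 to 18 dpp. The highest mouse of 18 dpp lay below the lowest of 8 dpp. Bcl2l13, another BCL2-related gene, lies on the opposite strand and overlaps 628 of the 3550 exon bases of Bid, and its own change was -0.02 (standard error 0.0747, limma adjusted p = 0.793).

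Bcl2l14 (ENSMUSG00000030200, chromosome 6 from 134396318 to 134438736), which encodes BCL-G, was listed at 0 in 2 of 3 mice of 8 dpp and at 0.12 TPM in the other. From 10 to 14 dpp no mouse exceeded 0.48 TPM. At 16 dpp the values were 0, 0, 0.18, 0.31 and 1.25 TPM and at 18 dpp 0.21, 0.59, 1.65, 1.73 and 3.32 TPM, so the level differed widely among mice of the same age. The log2 fold change of 1.13 (standard error 0.296, limma adjusted p = 0.00146) rests on values at or near 0 at 8 dpp and depends on the pseudocount, being 3.19 with a pseudocount of 0.1. Bcl2l14 passed the filter of the gene table only through 1 mouse of 18 dpp, the age then tested as higher. The p-values of its comparisons with 18 dpp are therefore not separate support for a rise. An antisense gene, 4933406J09Rik, overlaps Bcl2l14 in the annotation and was not analysed here.

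**Figure D2:**
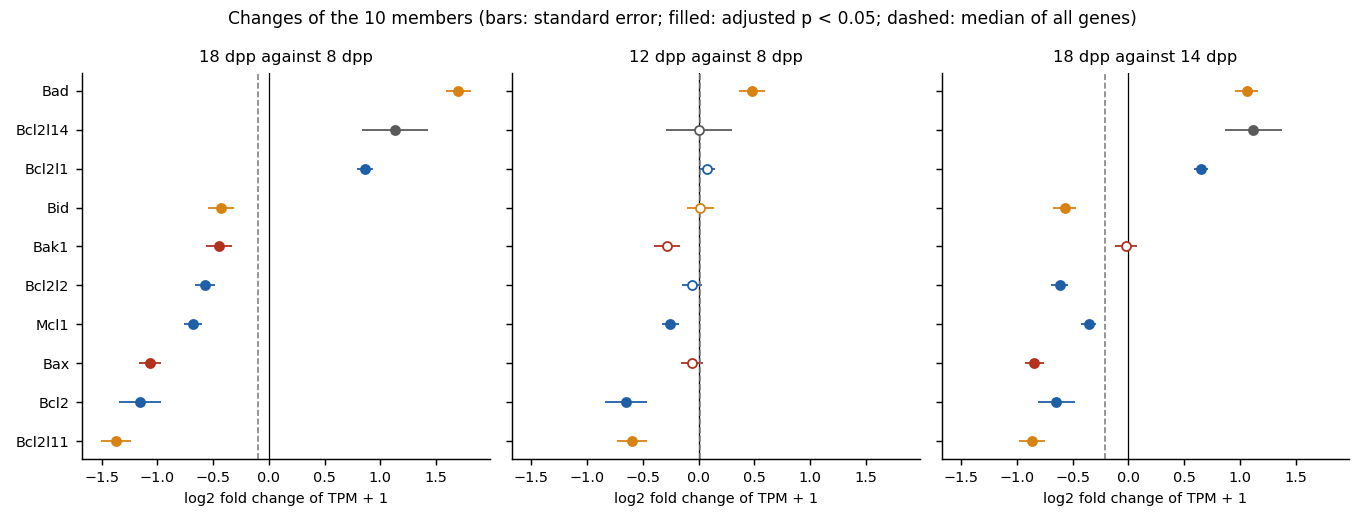
Log2 fold changes of TPM + 1 for the 10 members (points, with standard errors as bars), filled where the limma adjusted p was under 0.05, for 18 against 8 dpp, 12 against 8 dpp and 18 against 14 dpp, with the median of all genes dashed. Of the 10 members 4 were called from 8 to 12 dpp and 9 from 14 to 18 dpp, where Bak1 at -0.02 was the exception.

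Within the first set of libraries, from 8 to 12 dpp, 4 members were called, 1 higher and 3 lower, against 23.1% of all genes, 13.0% higher and 10.0% lower. Bak1 was called as well under quantile normalisation, with samples 1 to 3 alone and with a covariate for samples numbered above 3 (limma adjusted p = 0.0478, 0.0188 and 0.0463). Within the second set, from 14 to 18 dpp, 9 were called, 3 higher and 6 lower, against 68.4% of all genes, 26.3% higher and 42.1% lower. A test for any difference among the 6 ages called all 10 members and 77.6% of all genes.

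Step by step, the members changed in 3 intervals. No member was called between 8 and 10 dpp or between 12 and 14 dpp with limma (1.20% and 0.172% of all genes), and at an unadjusted p under 0.05 there were 0 and 1 (Bcl2l1, by 0.13). Between 10 and 12 dpp 3 members fell, against 21.4% of all genes called, 12.0% higher and 9.39% lower: Bcl2 (log2 fold change -0.61, standard error 0.164, limma adjusted p = 0.00811), Bcl2l11 (log2 fold change -0.49, standard error 0.117, limma adjusted p = 0.00295) and Bak1, as given above. Bad, at 0.28 (standard error 0.10, limma adjusted p = 0.0503), lay at the threshold and passed it when any 1 of 11 samples was left out. It also passed with a pseudocount of 0.1, with the stricter filter of 3 TPM in at least 3 samples and with a covariate for samples numbered above 3.

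Between 14 and 16 dpp 5 members were called (24.0% of all genes, 12.7% higher and 11.3% lower): Bad rose by 0.47 (standard error 0.10, limma adjusted p = 0.00112) and Bcl2l1 by 0.19 (standard error 0.0630, limma adjusted p = 0.0330), whereas Bcl2l11 fell (log2 fold change -0.42, standard error 0.117, limma adjusted p = 0.0104), as did Bax (log2 fold change -0.30, standard error 0.0858, limma adjusted p = 0.0116) and Bcl2l2 (log2 fold change -0.23, standard error 0.0780, limma adjusted p = 0.0348). Several of these calls were lost when 1 sample was left out. Bcl2l1 was no longer called without replicate 2 or 3 of 14 dpp or replicate 1, 2 or 5 of 16 dpp (limma adjusted p from 0.0558 to 0.124), Bcl2l2 without replicate 1, 2 or 3 of 14 dpp or replicate 1, 2 or 5 of 16 dpp (from 0.0624 to 0.109), and Bax without replicate 1 of 16 dpp (-0.22, adjusted p = 0.0561). Bid at 14 to 16 dpp was called only without replicate 3 of 14 dpp or replicate 3 of 16 dpp. Without a filter on low values Bcl2l1 and Bcl2l2 were not called (limma adjusted p = 0.0741 and 0.0891), and Bcl2l2 was also not called with median-of-ratios factors (limma adjusted p = 0.136) or only the 2 ages in the model (limma adjusted p = 0.0897). With samples 1 to 3 alone Bax and Bcl2l11 were not called (limma adjusted p = 0.0602 and 0.0503), and under quantile normalisation Bcl2 was called at -0.61 (limma adjusted p = 0.00859).

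Between 16 and 18 dpp 8 members were called (54.0% of all genes, 23.4% higher and 30.6% lower), 3 higher and 5 lower. Bad rose by 0.59 (standard error 0.10, limma adjusted p = 2.67e-05), Bcl2l1 by 0.47 (standard error 0.0630, limma adjusted p = 2.55e-06) and Bcl2l14 by 0.82 (standard error 0.256, limma adjusted p = 0.00857). Bax fell (log2 fold change -0.54, standard error 0.0858, limma adjusted p = 1.23e-05), as did Bcl2l11 (log2 fold change -0.45, standard error 0.117, limma adjusted p = 0.00204), Bcl2l2 (log2 fold change -0.39, standard error 0.0780, limma adjusted p = 1.69e-04), Bid (log2 fold change -0.33, standard error 0.102, limma adjusted p = 0.00745) and Mcl1 (log2 fold change -0.29, standard error 0.0683, limma adjusted p = 8.48e-04). Bcl2 at -0.30 and Bak1 at 0.11 did not pass. Bcl2 passed without replicate 4 of 18 dpp (-0.42, adjusted p = 0.0274), the mouse of that age with the most Bcl2 RNA. With median-of-ratios factors the changes of Mcl1 and Bid did not pass, at -0.12 (limma adjusted p = 0.122) and -0.17 (limma adjusted p = 0.120), and Bak1 was called at 0.27 (limma adjusted p = 0.0296). With only the 2 ages in the model the calls of Bcl2l14 (limma adjusted p = 0.0821) and Bid (limma adjusted p = 0.0506) were lost, and under quantile normalisation Bcl2 was called at -0.40 (limma adjusted p = 0.0440).

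Neighbouring ages did not overlap in 3 members between 14 and 16 dpp (Bcl2l1, Bax and Bad, against 18.1% of all genes) and in 5 members between 16 and 18 dpp (Bcl2l1, Bcl2l2, Mcl1, Bax and Bad, against 25.5%). Mcl1 alone did not overlap between 8 and 10 dpp (11.0% of all genes), and every member overlapped between 10 and 12 dpp (17.7%) and between 12 and 14 dpp (2.25%).

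As levels, which TPM allows to be compared between genes of different length, the order of the members was rearranged. At 8 dpp it ran Mcl1, Bax, Bcl2l2, Bcl2l1, Bcl2l11, Bid, Bak1, Bad, Bcl2 and Bcl2l14, and among neighbours only Bid with Bak1 and Bak1 with Bad overlapped between mice. At 18 dpp Bcl2l1 and Mcl1 led together (103 to 135 and 110.1 to 132 TPM), followed by Bad and Bax, which also overlapped (52.9 to 71.0 and 53.6 to 70.7 TPM), then Bcl2l2, Bid, Bak1, Bcl2l11, Bcl2l14 and Bcl2. Here Bax and Bad each overlapped with Bcl2l2, and Bid, Bak1 and Bcl2l11 with one another, as did Bcl2l14 and Bcl2. Bad had thus passed from the eighth place to the third in mean level, a place not set apart from Bax or Bcl2l2. The sum of the 10 members was 559 ± 13.5 TPM (SD, n = 3 mice of 8 dpp) and 461 ± 3.62 TPM (SD, n = 5 mice of 18 dpp), and Bcl2l1 made up 11.8 ± 0.904% of it at 8 dpp and 26.3 ± 2.96% at 18 dpp, Bax 22.9 ± 1.31% and 13.2 ± 1.70%.

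Summed by role, the anti-apoptotic members summed to 339 ± 12.8 TPM at 8 dpp and 293 ± 5.79 TPM at 18 dpp, the effectors to 148 ± 11.1 and 75.2 ± 7.99 TPM and the BH3-only members to 72.8 ± 4.10 and 91.1 ± 6.43 TPM (SD, n = 3 and n = 5). The ratio of Bcl2l1 to Bax was 0.517 ± 0.0645 in the 3 mice of 8 dpp, and 0.696 ± 0.0389, 0.995 ± 0.224 and 2.03 ± 0.462 in the 5 mice each of 14, 16 and 18 dpp (mean ± SD). It was below 1 in every mouse up to 14 dpp and above 1 in every mouse of 18 dpp, where it ran from 1.46 to 2.48. The ratio of Mcl1 to Bax moved less, from 1.50 ± 0.104 to 1.97 ± 0.118, and that of Bad to Bcl2l1 from 0.283 ± 0.0498 to 0.518 ± 0.0353 (SD, n = 3 and n = 5). These are ratios of RNA and were not tested.

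**Figure D3:**
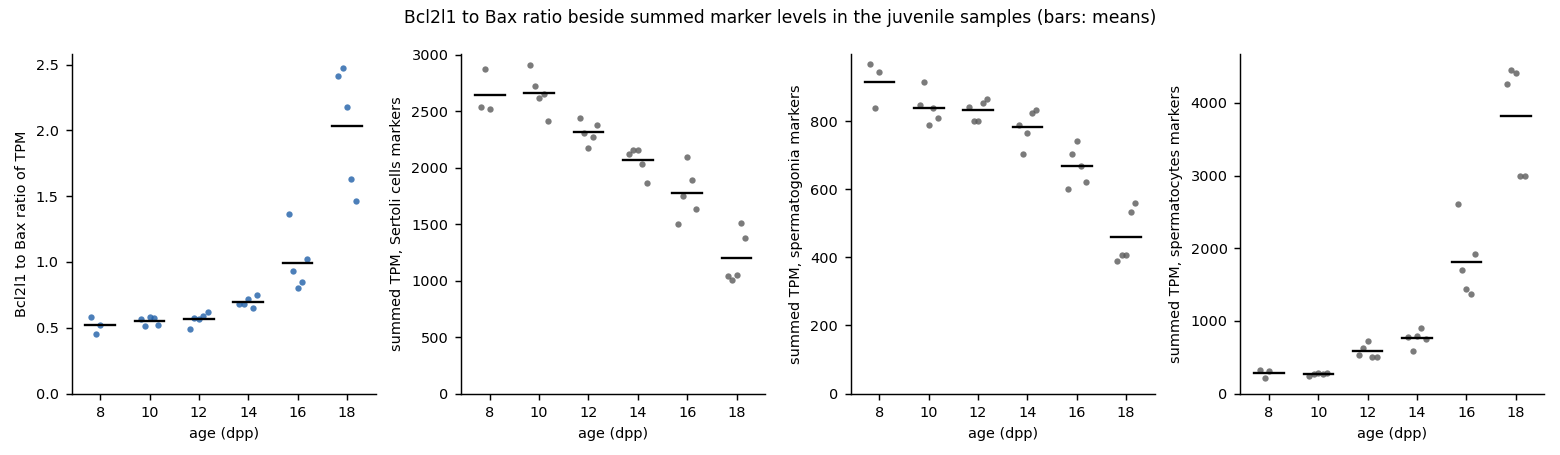
The ratio of Bcl2l1 to Bax TPM in each juvenile sample (left) beside the summed TPM of Sertoli cell, spermatogonia and spermatocyte markers in the same samples, by age in dpp, with means as bars. At 18 dpp the 2 mice with the lowest ratio also had the highest Sertoli cell and spermatogonia sums of their age and the lowest spermatocyte sums.

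The adult values are set beside the juvenile ones without a test, since the 2 tables were normalised apart. Bcl2l1 was listed at 165, 168, 168 and 179.9 TPM and Bad at 92.2, 106, 107 and 110.2 TPM. Bcl2l14 stood at 24.9, 32.0, 35.7 and 43.5 TPM in the adult samples, against at most 3.32 TPM in any juvenile mouse. All 3 genes that rose by 18 dpp were listed higher in each adult sample than in any mouse of 18 dpp.

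Bax was at 3.20, 3.51, 3.64 and 3.84 TPM in the adult samples and Bcl2l2 at 6.14, 7.30, 8.12 and 8.95 TPM. Bcl2l11 was at 0.52, 0.91, 1.01 and 1.94 TPM and Bid at 3.05, 3.32, 5.01 and 6.10 TPM. Mcl1 kept the highest level of the members that fell, 49.2 ± 3.25 TPM (SD, n = 4), and Bcl2 was listed at 0 in 3 samples and at 0.08 TPM in the other. Bak1, at 17.1, 17.3, 17.7 and 21.4 TPM, lay within its juvenile range, beside 1606 TPM on average for the overlapping Ggnbp1. The ratio of Bcl2l1 to Bax was 48.2 ± 4.40 (SD, n = 4). The adult samples had 69.1 to 103 TPM in sum of the 8 Sertoli cell markers, 2434 to 2599.6 of the 4 germ cell markers, 26.3 to 32.4 of the 6 spermatogonia markers, 8072 to 8488 of the 6 spermatocyte markers and 869 to 1176 of the 6 spermatid markers. The Leydig cell markers summed to 206 to 270 TPM and those of peritubular cells to 5.57 to 10.7 TPM. Sums were 3.32 to 4.35 TPM for macrophages, 5.38 to 8.59 TPM for red blood cells and 1.43 to 3.09 TPM for endothelial cells. C1qa of the macrophage list and Hbb-bs of the red blood cell list were at 0 in every adult sample. The part of these cells in the adult levels was not tested.

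The transcript table divides each gene among its annotated forms, as RSEM estimated them from shared reads. Of the 9 transcripts of Bcl2l1, 5 entered the usage test, which compares each transcript's percent of its gene's TPM between the early mice (8 and 10 dpp, 8 mice) and the late ones (16 and 18 dpp, 10 mice). Bcl2l1-201, which starts at the window shown, went from 43.9 ± 2.08 TPM (SD, n = 3 mice of 8 dpp) to 65.4 ± 8.93 TPM (SD, n = 5 mice of 18 dpp), while Bcl2l1-203, from a start inside the gene, less than a kilobase downstream, went from 8.06 ± 1.01 to 27.0 ± 8.32 TPM and Bcl2l1-202 from 11.9 ± 1.18 to 23.5 ± 5.21 TPM (SD, n = 3 and n = 5). As a share of the gene, Bcl2l1-203 moved from 10.1% early to 19.7% late (limma adjusted p = 0.00324), less than the 20 points required for a call, and Bcl2l1-201 from 63.0% early to 55.5% late (limma adjusted p = 0.0653). Bcl2l1-209, a processed transcript with an internal start, was listed at 0 in every mouse up to 14 dpp and had 2.44 ± 2.88 TPM (SD, n = 5 mice of 18 dpp).

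Bad-202 carried most of the rise of Bad, from 13.7 ± 1.98 TPM (SD, n = 3 mice of 8 dpp) to 46.5 ± 6.16 TPM (SD, n = 5 mice of 18 dpp), and Bad-201, whose start follows the window shown, rose from 3.59 ± 1.08 to 12.7 ± 3.37 TPM. The share of Bad-202 was 60.9% early and 67.8% late (limma adjusted p = 0.349). That of Bad-201 was 24.5% early and 24.9% late (limma adjusted p = 0.950). Both early shares joined ages that did not overlap. Bad-202 held 73.6% (71.8 to 75.9%) in the mice of 8 dpp and 53.3% (43.7 to 62.5%) in those of 10 dpp. For Bad-201 these were 18.9% (16.6 to 21.6%) and 27.8% (22.4 to 36.9%). By 18 dpp the forms stood at 74.3% and 20.4%. Between 8 and 12 dpp the mean of Bad-201 went from 3.59 to 9.14 TPM, and that of Bad-202 from 13.7 to 12.6 TPM. Shifts of share between single ages were not tested. The minor forms Bad-204 and Bad-205 held 4.25% and 2.96% late, with limma adjusted p = 0.411 and 0.0588.

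Only the 2 transcripts of Bak1 were called among the 19 member transcripts tested, against 2.36% of all 23813 transcripts tested. With a change of 10 points in place of 20 they were still the only 2, against 6.83% of all. Bak1-201, annotated as a target of nonsense-mediated decay, went from 28.3% early to 7.42% late (limma adjusted p = 0.0105), and Bak1-202, the coding form, from 70.8% early to 91.8% late (limma adjusted p = 0.0127). These 2 forms held nearly all of the gene's TPM, so the 2 calls are 1 shift seen from both sides. In TPM Bak1-202 was 13.8 ± 2.77 (SD, n = 3 mice of 8 dpp) and 13.2 ± 2.62 (SD, n = 5 mice of 18 dpp), and Bak1-201 was 5.91 ± 3.24 and 0.798 ± 1.53, so the difference in TPM between these ages lay mostly in the form marked for decay. The calls fell just short of 20 points without replicate 3 of 8 dpp (-19.0 points for Bak1-201) or replicate 3 of 10 dpp (-19.3), and with 8 and 18 dpp alone neither was called. The overlap with Ggnbp1 applies to both transcripts.

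The shares of the other member transcripts that were tested did not pass. Bcl2l11-205, the main form, held 60.4% early and 68.2% late (limma adjusted p = 0.291), with Bcl2l11-202, Bcl2l11-203 and Bcl2l11-206 at 0.205, 0.896 and 0.604. Its early share joined ages that did not overlap, 48.6% (45.1 to 53.4%) at 8 dpp and 67.5% (61.6 to 75.7%) at 10 dpp. The share of Bcl2l11-202 was 19.9% (17.2 to 22.9%) at 8 dpp and 8.01% (4.70 to 12.1%) at 10 dpp. At 18 dpp the 2 forms held 70.8% and 8.04%. A shift between 8 and 10 dpp was not tested. Bid was divided between Bid-201 (46.3% early and 41.0% late, limma adjusted p = 0.644) and Bid-204, annotated for nonsense-mediated decay (48.4% early and 55.9% late, limma adjusted p = 0.425). Bcl2l2-201 held 85.0% early and 87.1% late (limma adjusted p = 0.412) and Bcl2l2-203 13.6% early and 12.1% late (limma adjusted p = 0.584). The minor Bcl2l1-204 and Bcl2l1-208 stayed under 2% of the gene in both groups, with limma adjusted p = 0.566 and 0.614, and Bcl2l1-202 had 0.620. Bcl2, Bax and Mcl1 each had 1 transcript with any RNA, and Bcl2l14 was too low to enter, with Bcl2l14-204 at 0.920 ± 0.714 TPM and Bcl2l14-202 at 0.494 ± 0.615 TPM (SD, n = 5 mice of 18 dpp).

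**Figure D4:**
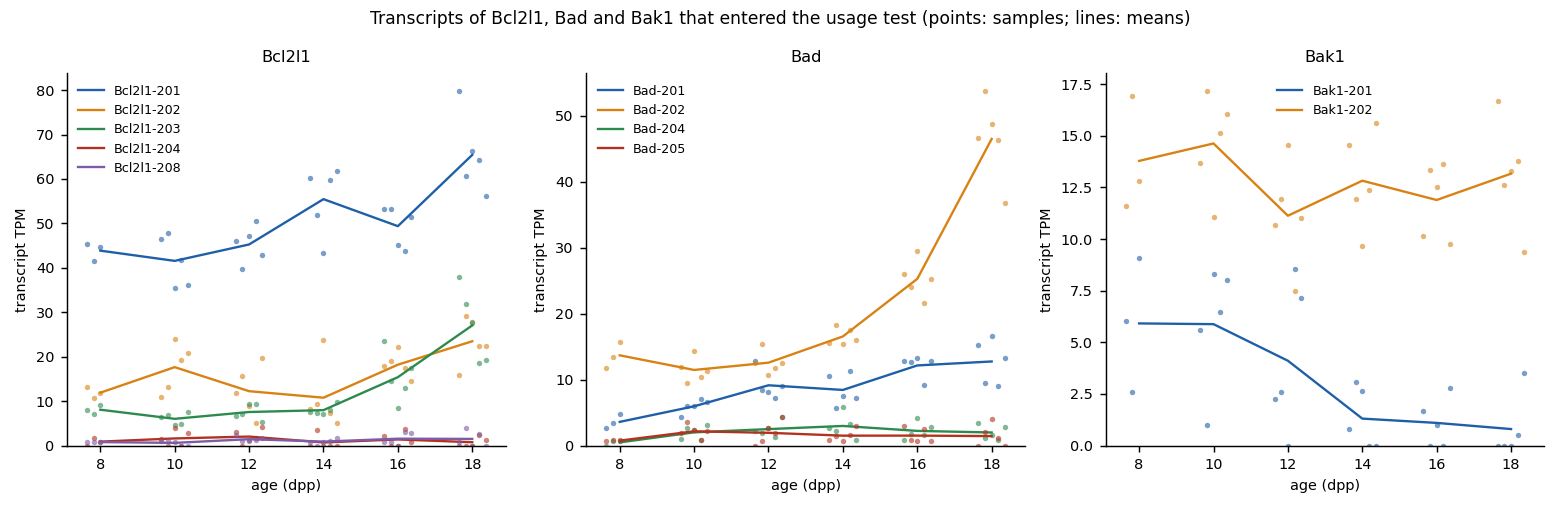
TPM of the transcripts of Bcl2l1, Bad and Bak1 that entered the usage test, by age in dpp, with samples as points and means as lines. Bad-202 and Bcl2l1-203 rise between 14 and 18 dpp, whereas Bak1-201 goes from a mean of 5.91 TPM at 8 dpp to 0.798 TPM at 18 dpp.

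The genes that act with the family were described by 5 lists, from 18 against 8 dpp. Their counts stand beside 31.8% of all genes called higher and 36.3% called lower. Of 15 other BCL2-related genes 10 were tested, and Bcl2l10, Bcl2l15, Bcl2a1a, Bcl2a1b and Bcl2a1d did not reach 3 TPM in any mouse. Of the 10, 6 fell, 3 rose and 1 (Bcl2l13) was not called, with a median of -0.78. The BH3-only gene Hrk fell from 10.3 ± 0.625 to 0.454 ± 0.257 TPM (log2 fold change -2.97, standard error 0.245, limma adjusted p = 3.34e-11) and Bok, a BAX-like effector, from 156 ± 20.0 to 24.0 ± 7.09 TPM (log2 fold change -2.69, standard error 0.171, limma adjusted p = 2.12e-13). Bcl2l12 rose from 25.2 ± 4.94 to 80.5 ± 12.4 TPM (log2 fold change 1.64, standard error 0.139, limma adjusted p = 5.61e-11), and the BH3-only genes Pmaip1, which encodes NOXA, and Bik rose by 0.47 (standard error 0.165, limma adjusted p = 0.0134) and 0.43 (standard error 0.156, limma adjusted p = 0.0167) (all SD, n = 3 and n = 5). The call of Pmaip1 was lost under quantile normalisation, with only the 2 ages in the model and with samples 1 to 3 alone.

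Of 9 genes of the apoptosome and the caspases, which act after cytochrome c has left the mitochondrion, 7 fell, Cyct rose and Apaf1 was not called (0.10), with a median of -0.84. Cyct, the testis form of cytochrome c, rose from 21.2 ± 2.02 to 214 ± 41.9 TPM (log2 fold change 3.26, standard error 0.230, limma adjusted p = 1.68e-12), while somatic Cycs, named after its values were seen, fell (log2 fold change -0.84, standard error 0.0970, limma adjusted p = 1.63e-08).

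Of 9 released factors and caspase inhibitors 4 rose, 4 fell and Birc2 was not called (0.06), with a median of 0.06. Diablo, whose protein leaves mitochondria to block caspase inhibitors, rose from 123 ± 4.06 to 557 ± 78.4 TPM (log2 fold change 2.16, standard error 0.102, limma adjusted p = 7.36e-16), and Birc5, the mitotic protein survivin, from 36.1 ± 5.75 to 85.2 ± 16.4 TPM (log2 fold change 1.21, standard error 0.124, limma adjusted p = 2.25e-09). Endog and Htra2 rose by 0.67 and 0.37. The caspase inhibitor Xiap fell from 26.4 ± 2.63 to 13.7 ± 2.10 TPM (log2 fold change -0.91, standard error 0.0940, limma adjusted p = 2.53e-09) and Birc3 from 14.9 ± 2.87 to 8.79 ± 2.18 TPM (log2 fold change -0.71, standard error 0.162, limma adjusted p = 3.43e-04), with Aifm1 at -0.71 and Birc6 at -0.64 (SD, n = 3 and n = 5).

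Among 16 partners of BCL2 proteins 8 fell, 3 rose and 5 were not called (Vdac3, Bag4, Bag3, Bag1 and Becn1), with a median of -0.26. Itpr3, a calcium channel, fell from 21.9 ± 1.07 to 8.40 ± 0.799 TPM (log2 fold change -1.28, standard error 0.109, limma adjusted p = 5.91e-11) and Huwe1, a ubiquitin ligase of MCL1, from 133 ± 5.56 to 58.7 ± 7.60 TPM (log2 fold change -1.17, standard error 0.111, limma adjusted p = 4.61e-10). Vdac2, the mitochondrial channel that holds BAK1, rose from 251 ± 8.67 to 463 ± 87.7 TPM (log2 fold change 0.86, standard error 0.0969, limma adjusted p = 1.14e-08), Itpr2 from 1.80 ± 0.601 to 4.94 ± 0.587 TPM (log2 fold change 1.10, standard error 0.189, limma adjusted p = 1.08e-05) and Bag6 by 0.49 (SD, n = 3 and n = 5).

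Of 12 upstream regulators 10 were tested, since Trp63 and Trp73 reached 3 TPM in no mouse, and of these 6 fell, 2 rose and Trp53 (0.14) and Chek2 (-0.27) were not called, with a median of -0.67. Akt1, whose kinase phosphorylates BAD, fell from 198 ± 7.49 to 82.3 ± 17.5 TPM (log2 fold change -1.28, standard error 0.109, limma adjusted p = 6.27e-11), and Foxo3, a transcription factor upstream of Bcl2l11, from 84.8 ± 3.57 to 41.9 ± 4.48 TPM (log2 fold change -1.01, standard error 0.116, limma adjusted p = 1.78e-08). Mdm2 and Mdm4, which restrain p53, rose by 0.82 (standard error 0.0908, limma adjusted p = 7.74e-09) and 0.57 (standard error 0.139, limma adjusted p = 6.99e-04). Kit, which also stands in the list of spermatogonia markers, was among those that fell, at -0.85. Over all 5 lists 44 of 54 genes tested were called, 13 higher and 31 lower, beside 68.2% of all genes, 31.8% higher and 36.3% lower. With median-of-ratios factors the balance of all genes turned to 7589 higher and 5991 lower. Whether the lists differ from all genes was not tested.

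**Figure D5:**
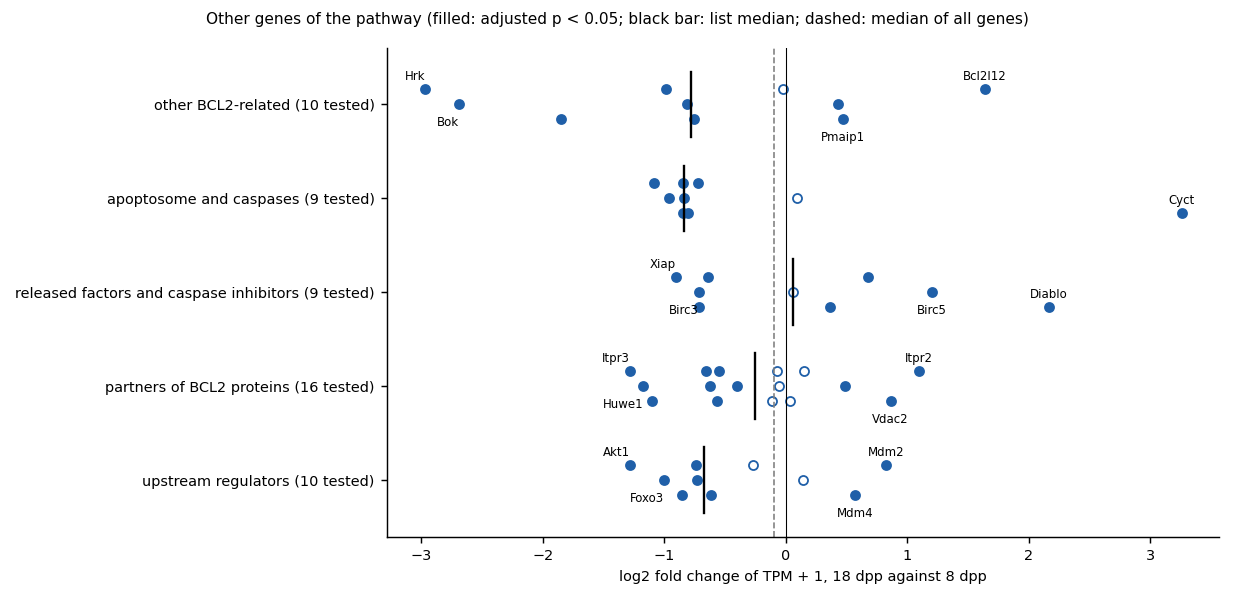
Log2 fold changes of TPM + 1 from 8 to 18 dpp for the genes of 5 pathway lists (points, filled where the limma adjusted p was under 0.05, and named for most of the genes with the largest changes), with each list's median as a black bar and the median of all genes, -0.09, dashed. Cyct at 3.26 and Diablo at 2.16 lie furthest right, Hrk at -2.97 and Bok at -2.69 furthest left.

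Pearson correlations of log2(TPM + 1) across the 28 juvenile samples, which share the course of age, are given as a description. Bcl2l1 and Bad had an r of 0.935, Bax and Bcl2l11 0.863, and Bcl2l1 and Bax -0.966, the lowest of the 45 pairs. The 2 genes with a symbol most like each member were Dnajc27 (r = 0.986) and Fam118b (r = 0.985) for Bcl2l1, Slc8a2 (r = 0.975) and Nop10 (r = 0.975) for Bad, Herc6 (r = 0.937) and Ano5 (r = 0.936) for Bcl2l14, Aldoa (r = 0.979) and Ppp1ca (r = 0.978) for Bax and Zfp777 (r = 0.964) and Btbd3 (r = 0.958) for Bcl2l11. For Mcl1 they were Rhou (r = 0.956) and Fbxw11 (r = 0.952), for Bcl2 Tet2 (r = 0.930) and Gm14226 (r = 0.923), for Bcl2l2 Nfx1 (r = 0.926) and Daam2 (r = 0.923) and for Bid Tmem184b (r = 0.925) and Sumf2 (r = 0.891). Bak1 had the weakest matches, Fkbp1a (r = 0.835) and Zfpm2 (r = 0.824).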

How the data were processed

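The authors isolated germ cells from juvenile C57BL/6J mice and from adult testes, made poly-A TruSeq libraries, sequenced paired ends of 100 bp in 2 lanes that were merged, aligned the reads with Bowtie 1.0.0 to a combined mm10 transcriptome and estimated TPM with RSEM 1.2.8. The deposited transcript table and the deposited adult table hold TPM. The deposited juvenile gene table holds a score, exp(log2(TPM + 1)) - 1, which had been assumed to be TPM and was converted back. After conversion 20288 of its 20368 genes were within 0.2 TPM of the sum of their transcripts in every sample and 80 were not. The authors' columns for meiotic substages hold their findings and were not used. Counts cannot be had back from TPM, so no depth is known for any sample, and each juvenile sample is 1 mouse.

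Ages were compared with limma 3.58.1 (R 4.3.3, variance trend) on log2(TPM + 1) with all 28 juvenile samples in 1 model, Benjamini-Hochberg adjustment over all genes and a threshold of 0.05. Transcript usage, in percent of gene TPM computed from the deposited TPM, was compared with limma and called at an adjusted p under 0.05 and at least 20 points. Lists were described by counts and medians. Named pathway genes were the 2 largest called rises and falls of each list and those of any count of 5 or fewer, except 2 genes of 1 list that are not reported here, and the correlated genes were the 2 with a symbol and the highest r. The members and lists were chosen with earlier results of these data known. The scripts were tested on simulated data. Alternatives were the pseudocount, filters, scaling, variance prior, samples in the model, a replicate block and leaving out each sample.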

Additional observations from a re-analysis of the deposited data

Results flagged for a closer look

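In 7 of the 60 groups of 4 or 5 samples, 11.7%, the highest or lowest sample stood apart from the others by Dixon's criterion. For normally distributed values chance meets it in about 1 of 20 groups. Where all other samples are at 0, any value above 0 meets it, so that rate does not hold for such groups. Bcl2 was at 0.08 TPM in replicate 4 of the adult samples and at 0 in the other 3. Bak1 was at 21.4 TPM in replicate 2 of the adult samples, and the next value was 17.7 TPM. Bcl2l2 was at 46.9 TPM in replicate 1 of 18 dpp, below the next value of 52.2 TPM. Bax was at 142 TPM in replicate 1 of 12 dpp, above the next value of 121 TPM. Bcl2l11 was at 18.3 TPM in replicate 3 of 14 dpp, below the next value of 21.9 TPM. Bcl2l14 was at 0.22 TPM in replicate 4 of 12 dpp, where the other 4 mice were at 0, and at 1.25 TPM in replicate 1 of 16 dpp, where the next value was 0.31 TPM.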

How the results depend on the processing

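The count of 10 members called from 8 to 18 dpp was the same under every alternative that tested all 10. The filter of 3 TPM in at least 3 samples left Bcl2l14 untested. Between 14 and 16 dpp the 5 calls became 3 without a filter on low values and 3 with samples 1 to 3 of each age alone, and 2 to 6 when 1 sample was left out. Between 8 and 12 dpp the 4 calls became 2 to 4 when 1 sample was left out. The 2 calls of transcript usage became 0 with 8 and 18 dpp alone, and 0 to 2 when 1 sample was left out. The cause was not tested. No member that was called turned its direction under any alternative, whereas the median and the balance of all genes from 8 to 18 dpp did turn. The test for any difference among ages lost Bcl2l14 under quantile normalisation (limma adjusted p = 0.0657).

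Rescaling moved the share of higher calls among all genes called. From 8 to 18 dpp it was 46.7%, and 55.9% with median-of-ratios factors and 37.7% under quantile normalisation. From 8 to 12 dpp it was 56.5%, and 49.0% with median-of-ratios factors. From 14 to 18 dpp it was 38.5%, and 54.3% with those factors. From 16 to 18 dpp it was 43.4%, and 63.0% with those factors. From 14 to 16 dpp it was 53.0%, with 66.3% under those factors and 41.6% under quantile normalisation. Over all genes, the 245 calls between 8 and 10 dpp became 129 with only those ages in the model, and the 35 calls between 12 and 14 dpp became 0 to 46 over the alternatives other than leaving out a sample. Leaving out 1 sample gave 2 to 14 between 12 and 14 dpp without replicate 1, 4 or 5 of 12 dpp or replicate 1, 3, 6 or 7 of 14 dpp, 129 without replicate 3 of 12 dpp, 90 without replicate 2 of 14 dpp and 78 without replicate 1 of 16 dpp. Between 8 and 10 dpp it gave 106, 140 and 121 without replicate 1, 2 or 3 of 8 dpp.

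Sample numbers mark different animals. Of 57 pairs with the same number, 3 deviated together with r over 0.1, against 15 of 268 pairs with different numbers. In 8 of 28 samples the best match carried the same number, and the count to be met by chance was not computed. No pairing was used in the main comparisons. With the replicate block the members called were 10 from 8 to 18 dpp, 4 from 10 to 12 dpp, 4 from 14 to 16 dpp, 8 from 16 to 18 dpp, 5 from 8 to 12 dpp and 9 from 14 to 18 dpp. Of all 20368 genes the block called 13957, 4264, 4280, 10945, 4303 and 13035 in the same intervals, and 131 between 8 and 10 dpp. The block brought in Bad from 10 to 12 dpp and Bak1 from 8 to 12 dpp and lost Bcl2l11 from 14 to 16 dpp (log2 fold change -0.33, limma adjusted p = 0.123).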
